A study of Mus musculus with 12 samples.

Results

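The 10 genes described here encode cytokines and TGF-β ligands that melanoma cells can release: Il33, Il18, Il15, Il6, Lif, Csf1, Il34, Tgfb1, Tgfb2 and Tgfb3. They were taken by name, as the entries of the count table whose Ensembl identifier maps to these symbols, and all 10 were found among its 56093 entries. The RNA came from B16, a melanoma line of the mouse, and made 12 libraries in 4 groups of 3. They were cells with a short hairpin RNA (shRNA) against Sdc1 and IFNγ, cells with the control hairpin against RFP and IFNγ, unstimulated cells with the hairpin against Sdc1, and unstimulated cells with the control hairpin. The groups are called shSdc1 with IFNγ, shRFP with IFNγ, shSdc1 and shRFP. All cells were grown in DMEM with 10% serum and all carried a hairpin, and IFNγ was given at 10 ng/ml for 24 h. The labels speak of transfected cells and give neither the number of hairpins nor that of clones, so what the knockdown did and what a hairpin did to other transcripts cannot be told apart. Whether replicates were cultured apart is not labelled either, and p-values therefore measure the spread among libraries that may differ only technically.

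These ligands speak mostly to other cells of a tumor. IL-33 is an alarmin of the IL-1 family that is stored in the nucleus and read by the receptor ST2, and IL-18, of the same family, is made as a precursor that caspases cut. IL-15 sustains natural killer and memory CD8 T cells and is presented on the IL-15 receptor alpha chain. IL-6 and LIF signal through the shared receptor chain gp130. CSF1 and IL-34 are the alternative ligands of the CSF1 receptor, on which macrophages depend. The 3 TGF-β ligands are secreted in a latent complex, must be freed from it, and then act through the same pair of receptors, with restraint of T cells among their known effects in tumors.

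Total counts were 14337771 to 21548940 per library, and a single count was worth 0.0456 to 0.0704 CPM (counts-per-million, with library sizes scaled by TMM). Sdc1, the target, was at 27.0, 25.1 and 25.4 CPM in shSdc1 with IFNγ, against 83.3, 79.6 and 103 CPM in shRFP with IFNγ. Without IFNγ it was at 23.4, 22.1 and 25.7 CPM in shSdc1, against 76.4, 73.9 and 75.9 CPM in shRFP. All 7 melanocyte markers listed were measured, with a summed level of 11747 to 13170 CPM in shSdc1 with IFNγ, 16614 to 18170 in shRFP with IFNγ, 12940 to 13369 in shSdc1 and 17245 to 17292 in shRFP. Of 16 leukocyte markers 3 passed the filter on low counts (Cd68, Lyz2 and Cd79a), 5 had no count, among them Cd3e and Adgre1, and Ptprc, Itgam and Csf1r had 1 count each over all libraries. The summed leukocyte markers were at 16.0 to 17.6 CPM in shSdc1 with IFNγ, 6.79 to 9.23 in shRFP with IFNγ, 8.63 to 9.32 in shSdc1 and 3.18 to 3.50 in shRFP, mostly from Cd68. This sum moved in the same direction as several of the cytokines below, and its part in them was not tested. Keratinocyte markers were at 0 except for a single count of Krt14. Of 8 fibroblast markers, Pdgfra and Pdgfrb passed the filter and Dcn had no count. The summed fibroblast markers were at 12.8 to 15.7 CPM in shSdc1 with IFNγ and 12.5 to 14.7 in shRFP with IFNγ. Without IFNγ they were at 13.9 to 15.4 CPM in shSdc1 and 13.9 to 16.3 in shRFP. Among 6 endothelial markers, Vwf passed, at 0.367 to 1.54 CPM over all libraries, and Kdr had no count. In bulk RNA, fewer cells of a type and less RNA per cell cannot be told apart.

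Of the 10 genes, 9 passed the filter, and Il6 was below it. In knockdown cells with IFNγ, 7 of the 9 rose against shRFP with IFNγ and 0 fell, beside 18.9% of the 14089 genes tested that rose and 17.4% that fell. Without IFNγ, 5 of the 9 rose in shSdc1 against shRFP and 0 fell, beside 14.0% of all genes that rose and 14.6% that fell. These were Il33, Lif, Csf1, Il34 and Tgfb1 in both settings, joined by Il15 and Tgfb3 with IFNγ. IFNγ raised 5 of the 9 in shSdc1 cells (Il18, Il15, Lif, Csf1 and Il34) and lowered 0, beside 17.5% of all genes that rose and 13.0% that fell, or 2047 genes higher and 2495 lower with upper-quartile scaling. In shRFP cells IFNγ raised Il18 and Csf1 and lowered 0, beside 17.2% of all genes that rose and 14.4% that fell, or 1759 genes higher and 2811 lower with upper-quartile scaling. At an unadjusted p under 0.05 the same test found 1 ligand lower in any of these comparisons, Tgfb3 with IFNγ in shRFP cells, and neither DESeq2 nor limma-voom called one lower after adjustment. With upper-quartile scaling that change passed (-0.38, edgeR adjusted p = 0.0242), as it did with 3 further alternatives given with Tgfb3 below. Lif and Il34 reached the filter's level of 0.613 CPM in no library without the knockdown, and Il33 in 1 of 6, so these genes were tested because of their levels in knockdown cells and the counts above cannot be read as independent of that. A gene is said to rise or fall where its edgeR quasi-likelihood test, adjusted over all genes by the Benjamini-Hochberg method, gave an adjusted p under 0.05.

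**Figure D1:**
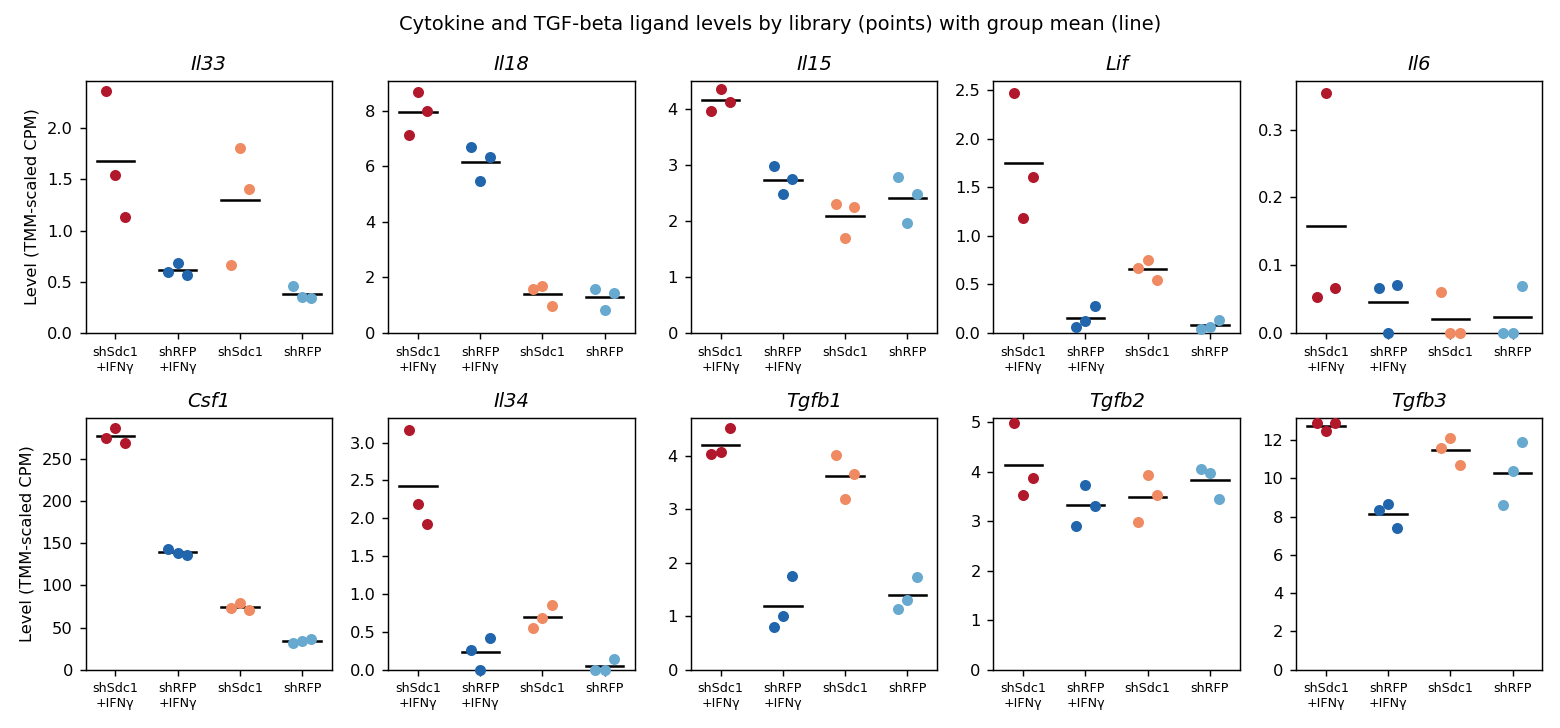
Level of each of the 10 genes (TMM-scaled CPM, linear axes starting at 0) in every library of shSdc1 with IFNγ, shRFP with IFNγ, shSdc1 and shRFP; points are libraries and lines are group means. Csf1 separates all 4 groups, Tgfb1 separates knockdown from control cells, Il18 separates cells with IFNγ from those without, and Il6 stays at 0 to 0.354 CPM.

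Among the alarmins, Il33 (ENSMUSG00000024810) was higher in knockdown cells at a low level. It had 2.36, 1.54 and 1.13 CPM in shSdc1 with IFNγ, against 0.595, 0.685 and 0.563 CPM in shRFP with IFNγ, and 0.668, 1.81 and 1.41 CPM in shSdc1, against 0.456, 0.356 and 0.345 CPM in shRFP. Knockdown and control libraries did not overlap in either setting, although the lowest shSdc1 library stood inside the range of shRFP with IFNγ. The log2 fold change of knockdown over control was 1.45 ± 0.38 with IFNγ (SE; edgeR adjusted p = 0.00608) and 1.70 ± 0.42 without (edgeR adjusted p = 0.00502). The counts behind these values were 87 against 28 with IFNγ and 63 against 21 without. Leaving out replicate 1 of shSdc1 with IFNγ, the highest library, brought the first value to 1.11 and ended its call (edgeR adjusted p = 0.0502). IFNγ itself changed Il33 by 0.39 ± 0.33 in shSdc1 cells (edgeR adjusted p = 0.410) and by 0.64 ± 0.49 in shRFP cells (edgeR adjusted p = 0.343), with 95% intervals of -0.31 to 1.10 and -0.38 to 1.66.

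Il18 (ENSMUSG00000039217) followed IFNγ. It stood at 7.14, 8.68 and 8.0 CPM in shSdc1 with IFNγ, against 1.58, 1.69 and 0.977 CPM in shSdc1, and at 6.68, 5.48 and 6.34 CPM in shRFP with IFNγ, against 1.60, 0.831 and 1.45 CPM in shRFP. Every library with IFNγ was above every library without. The log2 fold change was 2.48 ± 0.21 in shSdc1 (edgeR adjusted p = 2.5e-08) and 2.23 ± 0.22 in shRFP (edgeR adjusted p = 1.91e-07). With IFNγ the knockdown libraries lay just above the control libraries, but the difference of 0.36 ± 0.17 did not pass (edgeR adjusted p = 0.106). Without IFNγ the groups overlapped, and the difference was 0.11 ± 0.27 (edgeR adjusted p = 0.808).

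Il15 (ENSMUSG00000031712) was highest in knockdown cells given IFNγ, and the other groups lay closer together. Its levels were 3.97, 4.37 and 4.13 CPM in shSdc1 with IFNγ, against 2.98, 2.49 and 2.75 CPM in shRFP with IFNγ, and 2.31, 1.69 and 2.26 CPM in shSdc1, against 2.78, 1.96 and 2.49 CPM in shRFP. The ranges of shRFP with IFNγ and shRFP overlapped, as did those of shSdc1 and shRFP. The knockdown raised Il15 by 0.60 ± 0.19 on the log2 scale with IFNγ (edgeR adjusted p = 0.0160), whereas without IFNγ the change was -0.22 ± 0.20 (edgeR adjusted p = 0.478). The call with IFNγ ended without replicate 2 of shRFP with IFNγ (0.54, edgeR adjusted p = 0.0662) or without replicate 2 of shSdc1 with IFNγ (0.56, edgeR adjusted p = 0.0570). IFNγ raised it by 0.99 ± 0.19 in shSdc1 cells (edgeR adjusted p = 0.000566) and changed it by 0.17 ± 0.20 in shRFP cells (edgeR adjusted p = 0.543). The test of the difference between these effects gave 0.82 ± 0.28, with an unadjusted p of 0.00819 that did not pass the adjustment over all genes (edgeR adjusted p = 0.0667, 0.0550 to 0.178 over 20 alternatives).

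In the IL-6 family, Lif (ENSMUSG00000034394) was found mostly in knockdown libraries, while Il6 (ENSMUSG00000025746) was close to absent from the counts. Lif had 46, 20 and 24 counts in shSdc1 with IFNγ, against 1, 2 and 4 counts in shRFP with IFNγ, which is 2.47, 1.18 and 1.60 CPM against 0.0661, 0.125 and 0.282 CPM. Without IFNγ it had 11, 12 and 9 counts in shSdc1, against 1, 1 and 2 counts in shRFP, or 0.668, 0.751 and 0.550 CPM against 0.0456, 0.0593 and 0.138 CPM. No knockdown library overlapped a control library. The log2 fold change was 3.45 ± 0.48 with IFNγ (edgeR adjusted p = 1.42e-05) and 3.00 ± 0.63 without (edgeR adjusted p = 0.00124). As a plain ratio of summed counts per scaled library, the knockdown was 11.5-fold higher with IFNγ (exact 95% counting interval 5.37 to 29.5) and 8.73-fold higher without (3.10 to 34.0). Without replicate 3 of shRFP with IFNγ, which held 4 of that group's 7 counts, the fitted value rose to 4.10. IFNγ raised Lif by 1.42 ± 0.36 in shSdc1 cells (edgeR adjusted p = 0.00494), a call that ended without replicate 1 of shSdc1 with IFNγ (1.07, edgeR adjusted p = 0.0511). In shRFP cells the change was 0.97 ± 0.85, from 7 counts against 4 (edgeR adjusted p = 0.420).

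Il6, the prototype of the family, was below the filter in every group and was not tested. It had 1, 6 and 1 counts in shSdc1 with IFNγ, against 1, 0 and 1 in shRFP with IFNγ, and 1, 0 and 0 counts in shSdc1, against 0, 0 and 1 in shRFP. The sum of 8 counts in shSdc1 with IFNγ carried an exact 95% Poisson interval of 3.45 to 15.8 counts, and replicate 2 alone held 6 of them. Set against the 2 counts of shRFP with IFNγ, the ratio was 3.59, with a counting interval of 0.716 to 34.7, so a difference was not detectable at this depth. Against the single count of unstimulated shSdc1 the ratio was 7.72, with an interval of 1.04 to 343 that covers counting error only.

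Csf1 (ENSMUSG00000014599), the macrophage growth factor, was by far the most abundant of these transcripts and responded to both the knockdown and IFNγ. It stood at 275, 286 and 269 CPM in shSdc1 with IFNγ, against 143, 138 and 136 CPM in shRFP with IFNγ, and at 73.3, 78.7 and 70.7 CPM in shSdc1, against 31.4, 33.7 and 36.3 CPM in shRFP. The groups formed 4 separate levels with no overlap between any neighbours. The knockdown raised it by 0.99 ± 0.05 on the log2 scale with IFNγ (edgeR adjusted p = 3.46e-11) and by 1.14 ± 0.06 without (edgeR adjusted p = 3.25e-11). IFNγ raised it by 1.90 ± 0.05 in shSdc1 (edgeR adjusted p = 5.46e-16) and by 2.04 ± 0.06 in shRFP (edgeR adjusted p = 5.3e-16). The difference between the knockdown effects was -0.15 ± 0.08 (edgeR adjusted p = 0.242), with a 95% interval of -0.31 to 0.02, and with 1782 to 14009 counts per group this is the most precise of the 9 estimates.

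Il34 (ENSMUSG00000031750), the other ligand of the CSF1 receptor, rose with the knockdown and was near 0 in control cells. It had 59, 37 and 29 counts in shSdc1 with IFNγ, against 4, 0 and 6 counts in shRFP with IFNγ, which is 3.17, 2.19 and 1.93 CPM against 0.265, 0 and 0.423 CPM. Unstimulated libraries held 9, 11 and 14 counts in shSdc1, against 0, 0 and 2 counts in shRFP, or 0.547, 0.688 and 0.855 CPM against 0, 0 and 0.138 CPM. Every knockdown library was above every control library, and every shSdc1 library with IFNγ was above every shSdc1 library without. The fitted log2 fold change of the knockdown was 3.42 ± 0.52 with IFNγ (edgeR adjusted p = 3.94e-05) and 3.96 ± 0.86 without (edgeR adjusted p = 0.00176). From the summed counts the ratio was 11.2 with IFNγ (counting interval 5.90 to 24.0) and 18.5 without (4.76 to 159). The ratio without IFNγ rests on 2 control counts, both in replicate 3 of shRFP. With that library left out, shRFP had no count, and 3 counts taken for its 2 libraries together put shSdc1 9.01-fold higher. This drops the only shRFP library with counts and is no lower bound over all libraries, where the counting interval starts at 4.76. The fitted value of 6.55 without that library is no bound either. Leaving out replicate 1 of shRFP gave 3.30, and leaving out replicate 2 or replicate 3 of shRFP with IFNγ gave 2.81 or 4.17 for the effect with IFNγ. IFNγ raised Il34 by 1.80 ± 0.41 in shSdc1 cells (edgeR adjusted p = 0.00239). In shRFP cells 10 counts stood against 2, a change of 2.34 ± 1.11 that did not pass (edgeR adjusted p = 0.119) but passed without replicate 2 of shRFP with IFNγ (2.95, edgeR adjusted p = 0.0274) or replicate 3 of shRFP (4.93, edgeR adjusted p = 0.0386).

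The TGF-β ligands differed in the comparisons in which they passed, and differences between the ligands were not tested. Tgfb1 (ENSMUSG00000002603) followed the knockdown, at 4.03, 4.08 and 4.53 CPM in shSdc1 with IFNγ, against 0.794, 0.997 and 1.76 CPM in shRFP with IFNγ, and at 4.01, 3.19 and 3.67 CPM in shSdc1, against 1.14, 1.31 and 1.73 CPM in shRFP. Knockdown and control libraries were separate in both settings, and the control groups with and without IFNγ overlapped. The log2 fold change was 1.84 ± 0.25 with IFNγ (edgeR adjusted p = 1.13e-05) and 1.41 ± 0.24 without (edgeR adjusted p = 0.000189). IFNγ changed Tgfb1 by 0.21 ± 0.21 in shSdc1 cells (edgeR adjusted p = 0.477) and by -0.22 ± 0.29 in shRFP cells (edgeR adjusted p = 0.611).

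Tgfb2 (ENSMUSG00000039239) passed in none of the comparisons by edgeR, nor at an unadjusted p under 0.05. It had 4.99, 3.54 and 3.87 CPM in shSdc1 with IFNγ, against 2.91, 3.74 and 3.31 CPM in shRFP with IFNγ, and 2.98, 3.94 and 3.54 CPM in shSdc1, against 4.06, 3.97 and 3.45 CPM in shRFP, with overlap between all groups. The knockdown effect was 0.32 ± 0.18 with IFNγ (95% interval -0.06 to 0.70, edgeR adjusted p = 0.184) and -0.14 ± 0.18 without (-0.52 to 0.23, edgeR adjusted p = 0.607). Smaller changes than these intervals span were not detectable at 151 to 211 counts per group.

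Tgfb3 (ENSMUSG00000021253) had the highest level of the 3 ligands. It stood at 12.9, 12.5 and 12.9 CPM in shSdc1 with IFNγ, against 8.33, 8.66 and 7.40 CPM in shRFP with IFNγ, and at 11.6, 12.1 and 10.7 CPM in shSdc1, against 8.62, 10.4 and 11.9 CPM in shRFP. The groups were separate with IFNγ and overlapped without it. The knockdown raised Tgfb3 by 0.65 ± 0.12 with IFNγ (edgeR adjusted p = 0.000325), and without IFNγ the change was 0.17 ± 0.12 (edgeR adjusted p = 0.310). In shRFP cells IFNγ changed it by -0.32 ± 0.12, just short of the threshold (edgeR adjusted p = 0.0506), and in shSdc1 cells by 0.15 ± 0.11 (edgeR adjusted p = 0.346). Replicate 1 of shRFP was the lowest of its group, and without it the change in shRFP cells passed (-0.45, edgeR adjusted p = 0.0113). It also passed with upper-quartile scaling (-0.38), with a filter of 1 CPM in 3 libraries (-0.33) and without ENSMUSG00000119584 (-0.33). The knockdown effect with IFNγ exceeded that without by 0.48 ± 0.17, with an unadjusted p of 0.0105 (edgeR adjusted p = 0.0767), and the difference passed without replicate 1 of shRFP (0.60, edgeR adjusted p = 0.0331).

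**Figure D2:**
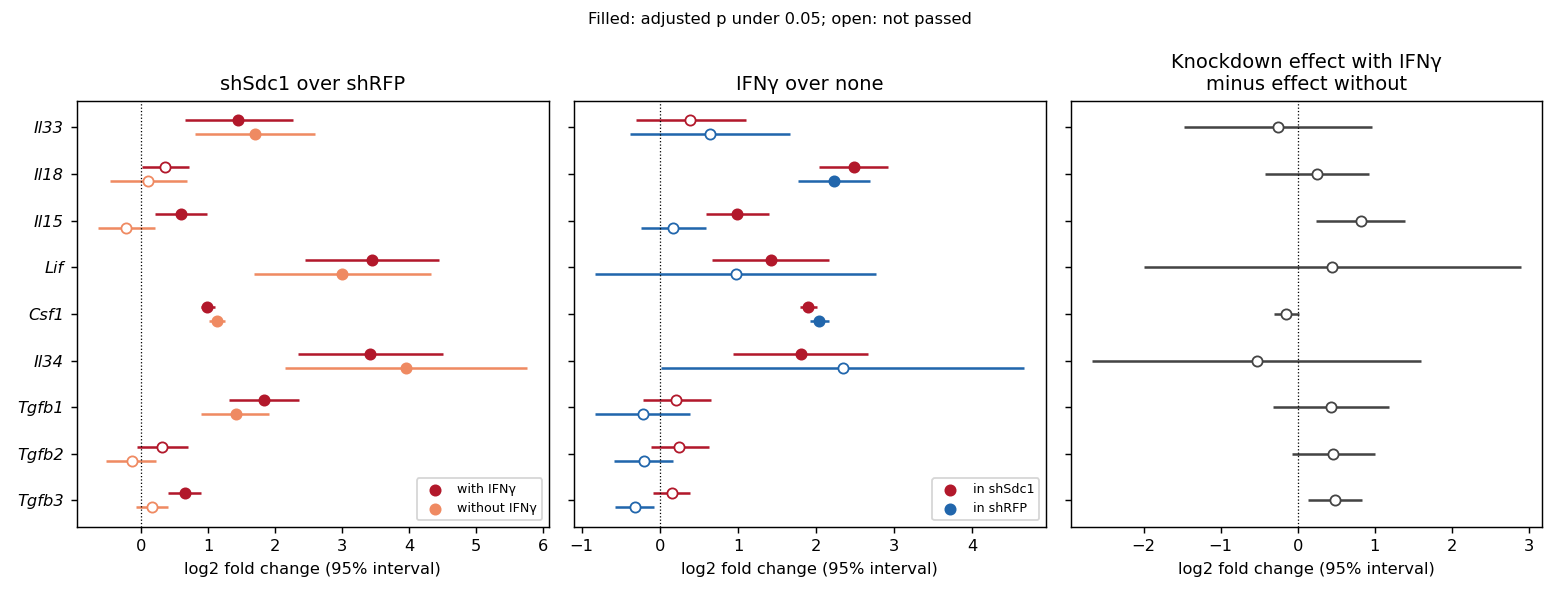
Log2 fold changes with 95% intervals for the 9 genes tested; left, shSdc1 over shRFP with and without IFNγ; middle, IFNγ over none in shSdc1 and in shRFP; right, the knockdown effect with IFNγ minus that without. Filled points passed at an adjusted p under 0.05; Lif and Il34 show the largest knockdown effects with the widest intervals, and no point passed in the right panel.

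The knockdown effects with and without IFNγ were compared gene by gene in the same model, and 0 of the 9 genes passed by edgeR, beside 9.73% of all genes tested. At an unadjusted p under 0.05 there were 2, Il15 and Tgfb3, and limma-voom also called 0. DESeq2 called 0 as well, but its Wald test gave no adjusted p for Il33, Lif and Il34 here. For Lif and Il34 the intervals of this difference, -2.0 to 2.90 and -2.67 to 1.60, were too wide to show whether IFNγ altered the effect of the knockdown. For Il33 the difference was -0.25 ± 0.58, for Il18 0.25 ± 0.32, for Tgfb1 0.43 ± 0.36 and for Tgfb2 0.46 ± 0.26.

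Levels of different genes were compared per length, as RPKM, here the CPM divided by the exon length in kilobases. In shSdc1 with IFNγ the order of the mean RPKM levels was Csf1 (52.4), Il18 (7.70), Tgfb3 (3.77), Il15 (1.84), Il34 (1.24), Tgfb1 (0.835), Tgfb2 (0.714), Il33 (0.581), Lif (0.402) and Il6 (0.0652). In shRFP it was Csf1 (6.40), Tgfb3 (3.04), Il18 (1.25), Il15 (1.07), Tgfb2 (0.661), Tgfb1 (0.276), Il33 (0.134), Il34 (0.0235), Lif (0.0186) and Il6 (0.00949). Il18 stood above Tgfb3 in the cells given IFNγ, at 5.98 against 2.40 RPKM in shRFP with IFNγ, and below it in the unstimulated cells. The levels of Tgfb1 and Tgfb2 in shSdc1 with IFNγ, 0.835 ± 0.0553 and 0.714 ± 0.131 (SD, n = 3 each), differed by less than the spread of Tgfb2.

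Tgfb3 supplied most of the length-scaled TGF-β ligand level in every group, at 70.9 ± 1.32% in shSdc1 with IFNγ, 74.8 ± 4.27% in shRFP with IFNγ, 71.9 ± 1.53% in shSdc1 and 76.2 ± 2.80% in shRFP (SD, n = 3 each). The share of Tgfb1 was 15.7 ± 1.07% in shSdc1 with IFNγ, against 7.36 ± 3.38% in shRFP with IFNγ, and 15.3 ± 2.08% in shSdc1, against 6.88 ± 0.703% in shRFP. The knockdown libraries lay at 12.9 to 16.8% and the control libraries at 5.04 to 11.2%, with no overlap. The sum of the 3 ligands was 5.32 ± 0.179 RPKM in shSdc1 with IFNγ, against 3.21 ± 0.166 in shRFP with IFNγ, and 4.71 ± 0.202 in shSdc1, against 3.98 ± 0.490 in shRFP. Csf1 made up nearly all of the CSF1 receptor ligand level, and Il34 held 2.31 ± 0.608% of it in shSdc1 with IFNγ, against 0.443 ± 0.419% in shRFP with IFNγ, and 2.48 ± 0.612% in shSdc1, against 0.338 ± 0.586% in shRFP. These shares are given as a description; an exact permutation test of 3 libraries against 3 could not go below a p of 0.10.

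**Figure D3:**
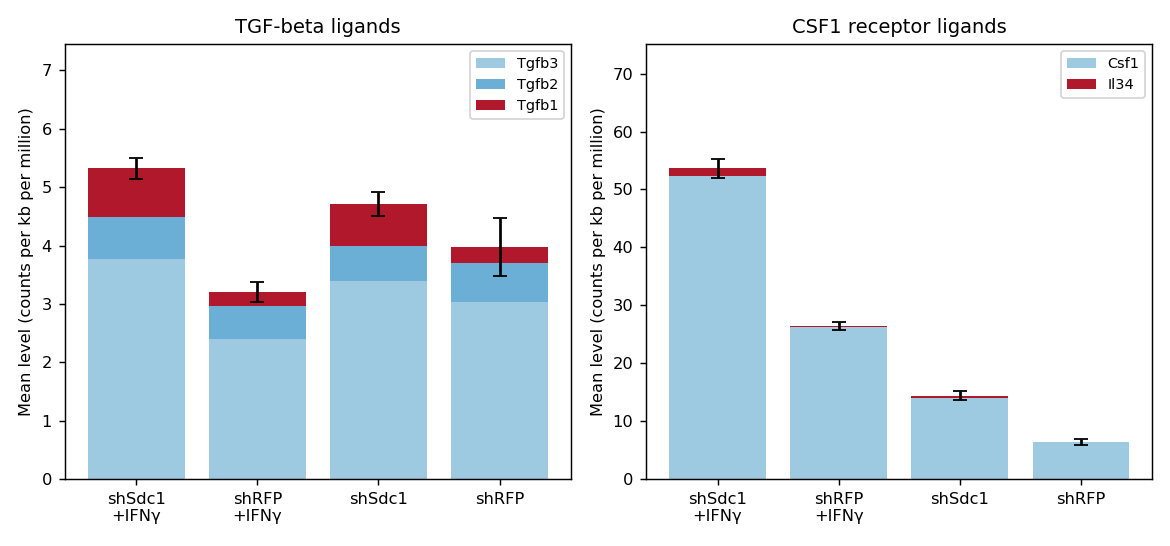
Mean levels (RPKM, CPM per kilobase of exon), stacked by gene, of the TGF-β ligands (left) and the CSF1 receptor ligands (right) in the 4 groups; error bars are the SD of the summed level over 3 libraries. The Tgfb1 segment is larger in both knockdown groups, and the sum of Csf1 and Il34 is highest in shSdc1 with IFNγ at 53.7 and lowest in shRFP at 6.42.

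The receptors that read these ligands were unevenly present in the cells themselves. Csf1r had 1 count over the 12 libraries, Ptprz1, a further receptor for IL-34, had 3, Il1rl1, which encodes ST2, had 1 and Il18r1 had 0. Il2rb, a signalling chain for IL-15, had 6 counts, all in knockdown libraries. By contrast the shared chain Il6st was at 109 ± 3.23 CPM in shSdc1 with IFNγ, 105 ± 6.61 in shRFP with IFNγ, 103 ± 3.19 in shSdc1 and 108 ± 2.48 in shRFP (SD, n = 3 each). Lifr, the partner of gp130 for LIF, rose by 0.56 ± 0.16 with the knockdown in cells given IFNγ (edgeR adjusted p = 0.00925), and Il6ra by 0.98 ± 0.30 (edgeR adjusted p = 0.0158). Tgfbr1 and Tgfbr2, the TGF-β receptor pair, were at 36.2 to 60.0 and 42.1 to 62.2 CPM over all libraries. With IFNγ the knockdown raised Tgfbr1 by 0.30 ± 0.07 and Tgfbr2 by 0.22 ± 0.06. Without IFNγ it raised Tgfbr2 by 0.21 ± 0.06 (edgeR adjusted p = 0.00768), and the change of Tgfbr1, 0.07 ± 0.07, did not pass (edgeR adjusted p = 0.492).

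Il15ra, the chain that presents IL-15, rose with IFNγ in both kinds of cell, and with the knockdown in cells given IFNγ. It stood at 14.6 ± 0.859 CPM in shSdc1 with IFNγ, against 8.16 ± 0.391 in shRFP with IFNγ, and at 3.10 ± 0.319 CPM in shSdc1, against 2.34 ± 0.606 in shRFP. The knockdown effect was 0.85 ± 0.13 with IFNγ (edgeR adjusted p = 3.78e-05) and 0.40 ± 0.18 without, which did not pass (edgeR adjusted p = 0.113). IFNγ raised it by 2.24 ± 0.14 in shSdc1 and by 1.79 ± 0.16 in shRFP. It was 1 of only 2 genes measured of 11 on the list of related cytokines and receptors.

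Around the alarmins, 7 of 20 listed genes of the IL-1 family and its processing were measured. With IFNγ 4 rose and 1 fell in the knockdown (median log2 change 0.31, against 0.02 for all genes), and without IFNγ 4 rose and 0 fell (0.38, against 0.00). For this list and those that follow, the same test called 18.9% of all genes higher and 17.4% lower with IFNγ, and 14.0% higher and 14.6% lower without. Casp4, which encodes the inflammatory caspase-11, was at 8.59 ± 1.20 CPM in shSdc1 with IFNγ, against 1.05 ± 0.369 in shRFP with IFNγ, a change of 3.04 ± 0.24. Il1rap, the co-receptor of ST2, rose by 0.88 ± 0.06 with IFNγ and 0.71 ± 0.06 without, and Gsdmd, the pore former of pyroptosis, by 0.57 ± 0.09 with IFNγ. Il18bp, which encodes a soluble inhibitor of IL-18, rose with IFNγ to 34.6 ± 2.74 CPM in shSdc1, against 3.42 ± 0.253 without, and to 27.9 ± 2.04 CPM in shRFP, against 4.28 ± 0.540 without. It was the only gene of this list whose knockdown effect differed with IFNγ (0.62 ± 0.16, edgeR adjusted p = 0.0238). Pycard, the adaptor of inflammasomes, fell by 0.70 on the log2 scale with the knockdown in cells given IFNγ.

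Of 16 further genes of the IL-6 family and its signalling, 8 were measured. With IFNγ 4 rose and 1 fell in the knockdown (median 0.40), beside 18.9% and 17.4% of all genes, and without IFNγ 3 rose and 1 fell (0.31), beside 14.0% and 14.6%. Clcf1, another ligand of the family, was at 1.27 ± 0.502 CPM in shSdc1 with IFNγ, against 0.127 ± 0.125 in shRFP with IFNγ. Stat3 and its feedback inhibitor Socs3 rose with IFNγ, by 1.51 ± 0.05 and 1.25 ± 0.12 in shSdc1 and by 1.69 ± 0.05 and 1.30 ± 0.12 in shRFP. Among the colony-stimulating factors and receptors, 4 of 10 were measured, 1 of them Sdc1 itself. Kitl, the ligand of KIT, rose by 1.57 ± 0.33 in the knockdown with IFNγ and 1.08 ± 0.33 without, and Flt3l, a growth factor of dendritic cells, rose with IFNγ by 1.91 ± 0.31 in shSdc1 and 1.09 ± 0.31 in shRFP. Of 20 other cytokines 3 were measured, and Mif fell in the knockdown, to 635 ± 5.66 CPM in shSdc1 with IFNγ, against 781 ± 15.6 in shRFP with IFNγ.

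Of 17 listed genes that hold TGF-β latent or free it, 13 were measured. In the knockdown with IFNγ 8 rose and 2 fell (median 0.19), beside 18.9% and 17.4% of all genes, and without IFNγ 8 rose and 1 fell (0.28), beside 14.0% and 14.6%. Ltbp1, a latent TGF-β binding protein, was at 2.17 ± 0.621 CPM in shSdc1 with IFNγ, against 0.309 ± 0.0776 in shRFP with IFNγ, and at 1.62 ± 0.244 CPM in shSdc1, against 0.166 ± 0.0243 in shRFP. Ltbp4 was at 65.3 ± 4.45 against 19.7 ± 1.95 CPM in the same pair with IFNγ. Itgb8, a subunit of an integrin that activates latent TGF-β, rose by 2.30 ± 0.19 with IFNγ and 2.00 ± 0.18 without. Thbs1, thrombospondin-1, another activator, rose by 2.43 ± 0.06 with IFNγ and 1.12 ± 0.07 without, and these effects differed (1.31 ± 0.10, edgeR adjusted p = 6.68e-07). Ltbp3 fell in both settings.

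Among 20 listed receptors, SMADs and inhibitors of TGF-β signalling, 17 were measured, with 7 higher and 2 lower in the knockdown with IFNγ (median 0.13) and 5 higher and 2 lower without (0.04). Smurf1, a ubiquitin ligase for SMAD proteins, rose by 0.76 ± 0.05 with IFNγ and 0.52 ± 0.05 without, and the co-receptor Tgfbr3 by 0.91 ± 0.12 and 0.44 ± 0.12. Genes known to respond to TGF-β went both ways: of 15 measured of 20, 8 rose and 3 fell in the knockdown with IFNγ (median 0.55), and 5 rose and 3 fell without (0.35). Fn1, fibronectin, was at 607 ± 17.4 CPM in shSdc1 with IFNγ, against 123 ± 5.40 in shRFP with IFNγ, and Ccn1 rose by 1.33 ± 0.06. Col1a2, a chain of collagen I, was lower in the same comparison, at 8.05 ± 0.677 against 19.2 ± 1.13 CPM. Col1a1, the other chain, was higher there, at 2.83 ± 0.260 against 1.11 ± 0.290 CPM (edgeR adjusted p = 0.00332). Smad7 and Skil, which encode feedback inhibitors of the pathway, passed in neither knockdown comparison. Of 16 genes listed as other ligands of the superfamily, 5 were measured. These include Bmp1, which despite its name encodes no ligand but a protease that cleaves matrix precursors. Bmp1 rose by 0.96 ± 0.07 with IFNγ and 0.88 ± 0.07 without.

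**Figure D4:**
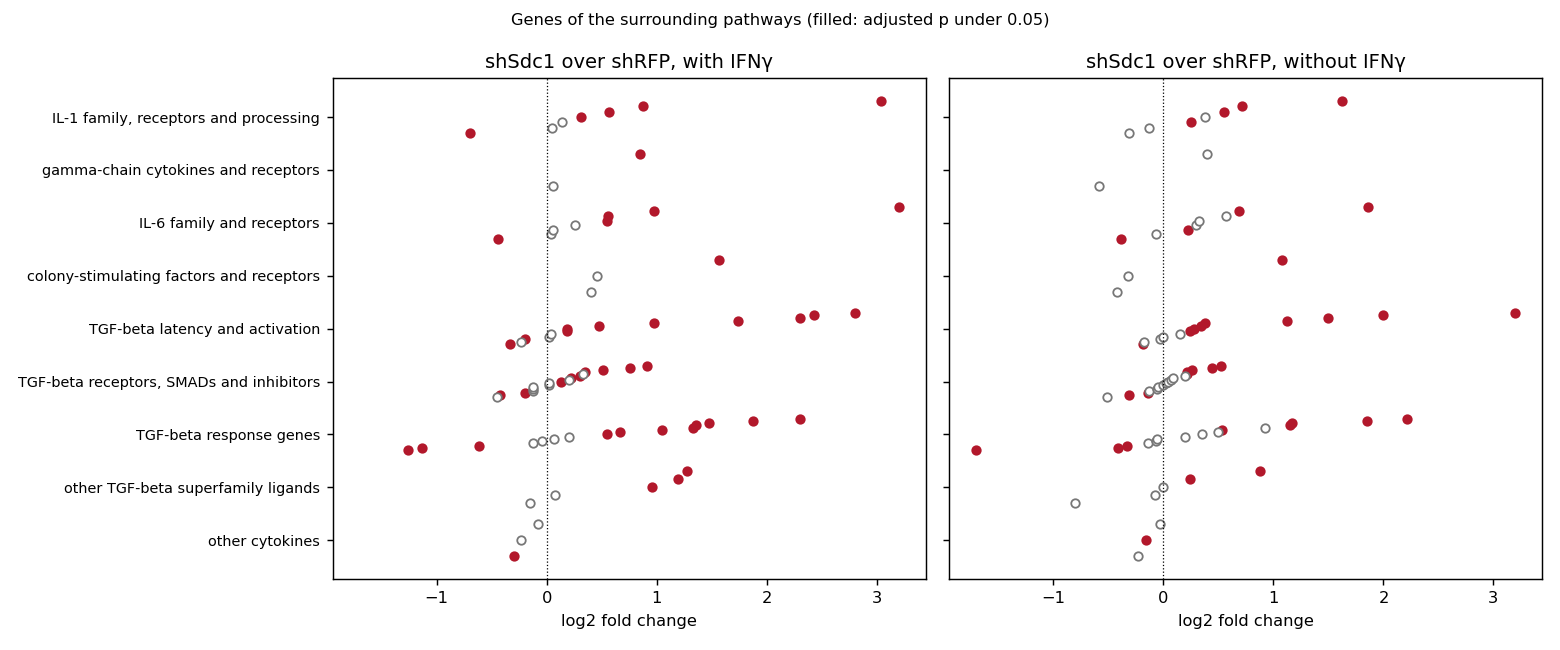
Log2 fold changes of shSdc1 over shRFP with IFNγ (left) and without (right) for the measured genes of each surrounding list, Sdc1 left out; points are genes, filled where the adjusted p was under 0.05. Most filled points lie right of 0, with the largest rises given IFNγ in Clcf1, Casp4 and Ltbp1, and genes known to respond to TGF-β lie on both sides.

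Promoter sequence is shown for 4 of the genes that changed, Csf1 and Il18, which rose with IFNγ in both kinds of cell, and Lif and Tgfb1, which rose with the knockdown. RefSeq sequence on GRCm38.p6 was found for 7 of the 10 genes (not for Il15, Il34 and Tgfb3), and the 250 bases before the annotated start are given 5′ to 3′ on the strand of the gene, with matches to a searched motif in capitals.

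Csf1, chr3:107760470-107760719 (minus strand): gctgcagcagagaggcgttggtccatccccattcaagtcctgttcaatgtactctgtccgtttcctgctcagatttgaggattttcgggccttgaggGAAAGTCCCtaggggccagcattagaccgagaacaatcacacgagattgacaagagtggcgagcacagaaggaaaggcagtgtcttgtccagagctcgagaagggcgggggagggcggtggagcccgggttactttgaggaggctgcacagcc

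Il18, chr9:50554450-50554699 (plus strand): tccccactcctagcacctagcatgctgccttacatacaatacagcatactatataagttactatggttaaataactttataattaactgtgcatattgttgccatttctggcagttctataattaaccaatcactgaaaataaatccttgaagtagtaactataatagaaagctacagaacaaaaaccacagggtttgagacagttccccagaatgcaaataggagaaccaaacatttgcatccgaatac

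Lif, chr11:4257318-4257567 (plus strand): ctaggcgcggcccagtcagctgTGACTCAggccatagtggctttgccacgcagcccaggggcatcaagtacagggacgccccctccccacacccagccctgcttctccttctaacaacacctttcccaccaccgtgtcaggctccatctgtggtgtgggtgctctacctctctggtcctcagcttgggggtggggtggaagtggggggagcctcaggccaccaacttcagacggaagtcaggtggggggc

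Tgfb1, chr7:25686752-25687001 (plus strand): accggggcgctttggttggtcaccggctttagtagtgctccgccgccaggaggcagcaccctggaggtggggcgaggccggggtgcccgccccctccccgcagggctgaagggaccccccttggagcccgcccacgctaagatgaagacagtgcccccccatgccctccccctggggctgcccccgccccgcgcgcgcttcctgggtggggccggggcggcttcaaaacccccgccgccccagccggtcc

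The motifs searched on both strands were TTCNNNGAA (IFNγ-activated site), GAAANNGAA (core of the interferon-stimulated response element), TGANTCA (AP-1), GGGANNTCC (similar to a κB site), GGGANNTTC (core of the κB site, added after the windows had been seen), CCGGAAGT (ETS) and CAGACA (SMAD). The capitals in the Lif promoter mark TGACTCA, an AP-1 match 228 bases before the start. Those in the Csf1 promoter mark GAAAGTCCC, a match to the κB core on the opposite strand, 153 bases before the start. The windows of Il18 and Tgfb1 hold no match to the letters searched. Il6 had an AP-1 match and a match to the κB core, and Tgfb2 a SMAD match, whereas Il33, with 2 annotated starts, had none. Among all 32851 promoter windows of this length, 7.02% held the IFNγ-activated site, 7.13% the response element core, 6.75% the AP-1 site, 3.59% the κB-like site, 3.23% the κB core, 2.88% the ETS site and 17.1% the SMAD letters. A match describes the sequence and says nothing of binding, and other forms of these motifs were not searched.

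The genes whose pattern over the 12 libraries was most like each ligand were found by the Pearson correlation of log2 CPM, a description in which the libraries share their groups. For Csf1 they were Laptm4b (0.997), Bid (0.996) and Parp3 (0.996), and for Il18 Mitd1 (0.983), Enpp5 (0.983) and Oasl2 (0.981). For Il15 they were Pnpt1 (0.939), Tmem176a (0.933) and Epb41l5 (0.925). Lif was most like Vcl (0.976), Aen (0.976) and Lrrc8c (0.970), Tgfb1 like Gsdmc (0.968), Lrrc8c (0.966) and Aif1l (0.964), and Il34 like Ptk2b (0.975), P3h3 (0.974) and Runx1 (0.969). The likeness was 0.952 for Il33 with Cep41, 0.928 for Tgfb3 with Rapgefl1 and 0.890 for Tgfb2 with Khnyn. Among the 9 genes themselves, Lif and Il34 (0.94), Lif and Tgfb1 (0.92) and Il18 and Csf1 (0.90) were the closest pairs, and Il18 and Tgfb3 (-0.06) the farthest. Of the TGF-β ligands, Tgfb1 and Tgfb3 had a correlation of 0.79, Tgfb2 and Tgfb3 0.37, and Tgfb1 and Tgfb2 0.23.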

How the data were processed

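The table deposited by the authors holds raw counts per gene, whole numbers, for 12 libraries. The submitters' processing notes list HISAT2 2.0.5, HTSeq, Trimmomatic and the build GRCm39, without their roles; annotation and strandedness were not stated there. Symbols and exon lengths came from GENCODE M21 (GRCm38), which matched 52083 of 56093 entries. Exons of Il34, Tgfb2 and Tgfb3 overlap opposite-strand genes there that held 1 to 3 counts each over all libraries.

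Counts were TMM-scaled, filtered with filterByExpr (minimum count 10, minimum total 15; 14089 genes) and fitted over all 12 libraries with 1 coefficient per group by edgeR 4.0.16 in R 4.3.3 (quasi-likelihood test, two-sided, Benjamini-Hochberg over all genes, threshold 0.05). SE is the log2 fold change over the square root of F, and for genes with few counts it can understate the counting error. Count ratios and intervals are exact at 95%; a group at 0 was given 3 counts. The intervals cover only counting error and not the spread among libraries. They can be too narrow even for counting error, because reads copied by PCR are no independent molecules. The steps were tested on simulated data.

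The genes, lists and alternatives were chosen with earlier results of these data known. Genes named beside the 10 ligands followed a rule: of each list, up to 4 per comparison by size of change, with an adjusted p under 0.05 and at least 1 CPM on average in some group, and the 3 most correlated genes per ligand (symbols that only number a gene model left out). Receptors were added by function, and Smad7 after its values were seen. Lists held 198 genes, of which 195 had an entry. A gene that the rule would name is not reported here.

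Alternatives were DESeq2 1.42.0 (Wald test and size factors), limma-voom (limma 3.58.1), upper-quartile scaling, other filters, only the 2 groups compared, the replicate number as a block, no ENSMUSG00000119584 (4.79% of counts in replicate 3 of shSdc1, 0.0842 to 0.195% in the other 11), and leaving out each library. Summaries and figures used Python 3.11.15 with pandas 2.3.3, scipy 1.17.1 and matplotlib 3.10.9.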

Additional observations from a re-analysis of the deposited data

How the results depend on the processing

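Of 933 comparisons of 45 log2 fold changes with their alternatives, 915 kept direction and side of the threshold, 4 lost the call, 7 gained it and 7 changed sign, the last all in values that did not pass; the cause was not tested. With the replicate number as a block the counts of called ligands were the same, 7, 5, 5, 2 and 0 over the 5 comparisons, and genes called in the interaction came to 500 higher and 528 lower, against 645 and 726. Over all genes tested, same-numbered libraries showed little common deviation from their group means (correlations of -0.068 to 0.033 over 18 pairs). Pairs with other numbers had -0.038 to 0.084. With group means of 3 libraries this cannot show whether equal numbers shared a culture, which the labels do not say. Tgfb3 under IFNγ in shRFP passed with upper-quartile scaling (-0.38), with 1 CPM in 3 libraries (-0.33) and without ENSMUSG00000119584 (-0.33). The interaction of Il34 was 0.09 with limma-voom, against -0.53.

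Leaving out each library in turn gave a knockdown effect with IFNγ of 1.11 to 1.65 for Il33 and 0.54 to 0.67 for Il15, and without IFNγ of -0.12 to 0.34 for Il18. The IFNγ effect was 1.07 to 1.64 for Lif in shSdc1, and 1.59 to 4.93 for Il34 and -0.45 to -0.21 for Tgfb3 in shRFP. The interaction was -0.59 to 0.07 for Il33, -0.04 to 1.09 for Lif, -3.13 to 0.21 for Il34 and 0.37 to 0.60 for Tgfb3, so that 0 to 1 ligand was called, and 389 to 1005 genes were called higher and 412 to 1010 lower.

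Shares from plain counts, without division by exon length, were for shSdc1 with IFNγ, shRFP with IFNγ, shSdc1 and shRFP in turn 19.5, 26.2, 18.8 and 25.0% for Tgfb2 and 60.5, 64.4, 61.7 and 66.1% for Tgfb3. Tgfb1 came to 20.0% in shSdc1 with IFNγ, 19.5% in shSdc1 and 8.90% in shRFP, and Il34 to 0.870% in shSdc1 with IFNγ and 0.934% in shSdc1. Depth limits Il6, Lif and Il34 most, with 1 to 10 counts per control group.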
